A study of Mus musculus with 14 samples.

Results

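The genes described here encode proteins of the cytosolic ribosome, the particle that makes protein in the cytoplasm. They were chosen by symbol: Rpl or Rps followed by a digit, or Rplp0, Rplp1, Rplp2 or Rpsa, with Rps6k kinase genes and pseudogenes left out. A gene entered only through a probe set that carries its symbol and no other, which gave 50 genes on 106 probe sets, out of 18193 genes with such a probe set. Each gene is represented by its brightest probe set over all 14 arrays. Of the 50, 43 are core ribosomal proteins, 22 of the large and 21 of the small subunit. Another 6 are paralogs of core genes (Rpl3l, Rpl7l1, Rpl22l1, Rpl39l, Rps4l and Rps27l), and Rps19bp1 encodes a protein that binds one. A further 31 family symbols, among them Rpl3, Rpl5, Rplp1 and Rps12, stood only on probe sets shared with other symbols and are not members.

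A ribosome is built from 1 copy of nearly every one of these proteins together with ribosomal RNA, and cells make the proteins in matched amounts. Most of their mRNAs begin with a C followed by a stretch of C and T (U in the RNA), the terminal oligopyrimidine or TOP sequence, through which the kinase complex mTORC1 and the RNA-binding protein Larp1 set how strongly they are translated. That control acts on translation, which an array of RNA levels does not measure. FoxO transcription factors are restrained by insulin and growth factor signalling, the same signalling that raises mTORC1 activity.

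RNA from 14 mouse samples was hybridised to Affymetrix mouse genome arrays with 45101 probe sets, 1 array per sample. All animals were of FVBn background and had L/L (floxed) alleles of Fk1, Fk2 and Afx, the older names of the forkhead genes Foxo1, Foxo3 and Foxo4. Control animals were MxCre- and the others MxCre+, called Cre+ here. MxCre is a Cre recombinase gene under an interferon-inducible promoter that acts in many cell types. Liver sinusoidal endothelial cells (LSEC), the fenestrated lining cells of the liver, came from 3 control and 3 Cre+ samples, lung endothelial cells from 2 and 2, and thymus cells from 2 and 2. The labels leave unstated the animals' age and sex, how Cre was induced, how cells were isolated and whether replicates were separate animals, so p-values measure the spread between these samples.

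Each value is a log2 level, so a difference of 1 is a doubling; levels of different probe sets were not compared. Replicate arrays of a group correlated at 0.970 to 0.987. Foxo1 and Foxo4 differed by -0.93 and -2.15 between the LSEC samples labelled Cre+ and control, and by -1.19 and -3.24 in thymus, with limma adjusted p between 1.4e-04 and 0.0060. In lung the differences of -0.51 and -1.10 did not pass (adjusted p = 0.56 and 0.25). Foxo3 fell by 0.53 in LSEC, rose by 0.68 in thymus (adjusted p = 0.0031 and 0.014) and differed by 0.10 in lung (adjusted p = 1); whether these probe sets lie in the deleted parts was not tested. The lung samples also carried lung epithelial RNA: Sftpc, a surfactant gene, stood at 11.97 to 12.59 there and at 6.46 to 6.93 in LSEC.

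The sequences around the start of transcription show which members carry TOP letters. RefSeq start sites on GRCm38.p6 were available for 44 of the 50 members. The windows printed here are of members on which later results turn: 4 core genes with TOP letters at the annotated start, 3 other core genes, and 2 paralogs. Each window is 5′ to 3′ on the gene's strand and holds 20 bases before the annotated start and 10 bases from it onward. Capitals mark the longest unbroken run of C and T within 20 bases of the start, as far as it lies in the window. The runs of Rpl27a (20 bases) and Rpl22l1 (10 bases) go on past the window's end.
Rps6: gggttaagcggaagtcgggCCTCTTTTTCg
Rpl14: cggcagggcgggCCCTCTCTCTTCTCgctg
Rplp2: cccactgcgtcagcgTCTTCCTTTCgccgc
Rps27: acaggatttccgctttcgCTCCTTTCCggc
Rps9: gtccaaccgccttgTCTCTCTTTgtctcgg
Rpl27a: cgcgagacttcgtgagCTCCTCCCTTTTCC
Rpl22: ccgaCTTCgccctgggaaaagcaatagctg
Rpl22l1: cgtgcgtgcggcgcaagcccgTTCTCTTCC
Rps27l: cctctccaCTCCTCCCCgccgcctctatcc
The windows lie at chr4:86857358-86857387 (minus strand) for Rps6, chr9:120571497-120571526 (plus) for Rpl14, chr7:141447631-141447660 (plus) for Rplp2 and chr3:90213639-90213668 (minus) for Rps27. Those of the other core genes are chr7:3704021-3704050 (plus) for Rps9, chr7:109519175-109519204 (plus) for Rpl27a and chr4:152325706-152325735 (plus) for Rpl22. The paralogs' windows are chr3:28805488-28805517 (plus) for Rpl22l1 and chr9:66946066-66946095 (plus) for Rps27l. Each crosses the boundary between promoter and first exon.

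Of 38 core members with a start site, 8 (21.1%) had a C at the annotated start followed by 4 bases that were all C or T, against 2.49% of 27025 genes in the table. These were Rpl14, Rpl35, Rpl38, Rplp2, Rps6, Rps10, Rps18 and Rps27. A run of at least 8 C or T bases within 20 bases of the start was present in 17 of the 38 (44.7%), against 15.9% of all genes. None of the 69 mitochondrial ribosomal protein genes in the table had the TOP letters at the start. An annotated start can differ from the start used in a tissue, so a missing match says only that these letters are not at this position.

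Other motifs were searched in the 250 bases before and 50 bases after the start, on both strands, each counted whether or not its match overlapped another. The ETS letters CCGGAAG stood in 19 of the 38 core promoters (50%) and in 9.12% of all promoters. In the 69 mitochondrial ribosomal protein genes the ETS share was 36.2%. The YY1 letters ATGGCGG stood in 13.2% of the core promoters, 18.8% of the mitochondrial ribosomal protein promoters and 4.19% of all promoters. The forkhead letters GTAAACA stood in 1 core promoter, that of Rpl41 (2.63%), and in 3.55% of all promoters. The E-box CACGTG (7.89% and 7.24%) and TATAAA (10.5% and 14.2%) had similar shares in both sets. These are matches of letters, not measured binding.

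The core genes were among the brightest on the array. On every array, 32 to 36 of the 43 core members lay above that array's 99th percentile of 11.83, and the highest value of any core member was 13.62 where the array itself ended at 13.75 to 13.77. Levels this close to the top of the scale can understate differences. Another 7 core members had mean levels under 11: Rpl12, Rpl14, Rpl27a, Rps6, Rps16, Rps25 and Rps27, a split made after the levels were seen. Whether the probe sets of these 7 report the main transcript of their gene was not tested, which limits the results on them. Rpl12 and Rpl14 have 1 probe set each. Rps16 stood between 3.86 and 6.05 on the 14 arrays, below the level at which genes were tested (6.87), as did the paralogs Rpl39l (2.83 to 6.05) and Rpl3l (3.02 to 5.25). The tests therefore covered 47 members, 42 of them core.

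The first question was whether loss of the FoxO genes changed ribosomal protein mRNAs. In LSEC, where the comparison was best replicated, no member passed: 0 of 47, where 6.06% of all 13035 genes tested did. The median difference over the 42 core members was 0.051, against 0.0063 over all genes tested, and 36 of the 42 had positive values. This sign did not hold under every scaling. With arrays centred on bright genes outside the family, described with the tissue comparisons, the core median was -0.01. Centring on the core members also gave -0.01, but that setting holds the core median near 0 by construction. The mean over the 43 core members was higher with Cre in the values as deposited (11.94 against 11.89) and with median centring (12.01 against 11.97). Of the 47, 2 had an unadjusted p under 0.05, Rpl10a and Rpl14, as did 2591 of all 13035 genes. With trended, robust variance limma also called 0 members. The 2 genotypes were fully separated for 5 of the 42 core members, against 23.7% of all genes.

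The stalk of the large subunit recruits elongation factors. Rplp0, its scaffold, stood at 13.15, 13.09 and 13.11 in control LSEC and at 13.06, 13.09 and 13.06 in Cre+ LSEC, a difference of -0.05 (95% confidence interval -0.18 to 0.08). Rplp2, a stalk protein that binds it, stood at 12.75, 12.67 and 12.59 in controls and 12.69, 12.68 and 12.65 in Cre+ samples. The groups overlapped for Rplp2, and for Rplp0 the Cre+ arrays lay just below the controls.

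Among other large subunit genes, Rpl10a, which forms the mobile L1 stalk, had the smallest p in LSEC. Its levels were 12.33, 12.19 and 12.26 in controls and 12.38, 12.58 and 12.42 with Cre, a difference of 0.20 (SE 0.077, adjusted p = 0.17). Rpl14, a protein of the solvent side, read 6.55 to 7.05 in the 3 controls and 6.93 to 7.39 in the 3 Cre+ samples, a difference of 0.33 (SE 0.15, adjusted p = 0.23). All Cre+ arrays were above all controls for Rpl10a, while for Rpl14 1 control lay above 2 Cre+ arrays. Rpl4, which lines the exit tunnel, differed by 0.14 (adjusted p = 0.32). Rpl11, which can bind and inhibit the p53 ligase Mdm2, read 11.79, 11.86 and 11.80 against 12.09, 11.97 and 11.76, a difference of 0.12 (adjusted p = 0.49) with overlapping groups.

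In the small subunit, Rps6, the classical substrate of the S6 kinases, was flat in LSEC: 8.12, 8.16 and 8.29 in controls and 8.21, 8.28 and 8.17 with Cre. Its difference was 0.03 (95% interval -0.17 to 0.23). Rps26, at the mRNA exit site, differed by 0.15 (adjusted p = 0.29). Rps19, a gene mutated in Diamond-Blackfan anaemia, differed by 0.05, and Rpsa, which also carries the name laminin receptor, by 0.13 (adjusted p = 0.43); their groups overlapped. A second, nearly dark probe set of Rpsa (mean level 1.15) differed by -2.20 in the fit of all probe sets (adjusted p = 0.028), while the bright one stood at 12.91 to 13.22 on the LSEC arrays. Over the 36 bright core members the 95% intervals in LSEC reached from -0.21 to 0.37, with a median half-width of 0.154.

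During these comparisons other cell markers moved. In LSEC the mean of 12 LSEC markers fell from between 10.46 and 10.95 in controls to between 8.80 and 9.52 with Cre, and 12 pan-endothelial markers stood at 10.41 to 10.77 and 9.97 to 10.25. The 6 mast cell markers stood at 5.93 to 5.98 in controls and 6.78 to 8.06 with Cre, and 6 neutrophil markers at 5.32 to 5.65 and 6.26 to 7.60. Their part in the ribosomal values was not tested. In bulk samples, fewer cells of a type and less RNA per cell cannot be told apart.

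In lung endothelial cells 0 of 47 members passed, with 0.107% of all genes called (14 genes), and the core median was 1e-04 against 0.015 over all genes, and between -0.03 and 0.05 under the other scalings. The groups did not overlap for 12 of 42 core members, against 38.4% of all genes. Of the 47, 1 member had an unadjusted p under 0.05, as did 594 of all 13035 genes. That member was the paralog Rps27l, whose human counterpart is a p53 target. It stood at 11.45 and 11.37 in controls and at 12.15 and 12.14 with Cre, a difference of 0.74 (SE 0.17, 95% interval 0.35 to 1.12, adjusted p = 0.31). Both Cre+ arrays lay above both controls by more than the distance between replicates, and the 2 other probe sets of the gene differed by 0.71 and 0.61. With array weights it passed (0.74, adjusted p = 0.039), and it was the sole member to do so. Its partner Rps27 read 7.28 and 7.32 against 7.40 and 7.20, so those groups overlapped.

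The other lung values with the smallest p were those of Rpl37a (0.12), Rpl14 (0.23) and Rpl35 (0.12), all with an adjusted p of 1. Rplp0 stood at 13.32 and 13.35 against 13.27 and 13.29, and Rps6 at 8.84 and 8.65 against 8.73 and 8.57. The 95% intervals of the bright core members lay between -0.30 and 0.34. Their median half-width was 0.189, against 0.154 in LSEC.

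In thymus 0 of 47 members passed, where 0.414% of all genes did (54 genes). Of the 42 core members 35 had negative values, with a median of -0.03 against 0.02 over all genes, and groups did not overlap for 23 of the 42, against 41.6% of all genes. With arrays centred on the core members, which holds their median near 0 by construction, it was 0.01. Under the 3 other scalings the core median lay between -0.08 and -0.03. The smallest p was that of Rps6, at 8.30 and 8.33 in controls and 8.02 and 7.77 with Cre (difference -0.42, SE 0.11, adjusted p = 0.14). Rpl14 read 6.48 and 6.76 against 6.11 and 6.08 (-0.52, adjusted p = 0.26), all 4 below the tested level of 6.87, which this gene reached in other tissues only. These were the 2 members with an unadjusted p under 0.05, which 1611 of all 13035 genes had. Both Cre+ arrays lay below both controls for Rps6 and for Rpl14.

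Rpl12, which sits at the base of the stalk, stood at 8.68 and 8.96 in control thymus and 8.63 and 8.26 with Cre (-0.37, adjusted p = 0.41). Rplp0 stood at 13.23 and 13.25 against 13.08 and 13.12, a difference of -0.14 (adjusted p = 0.48). The 36 bright core members had a median of -0.02. The 6 tested core members with a mean level under 11 had a median of -0.33, all 6 negative. Among these 6, Rpl14 and Rps27 had thymus means under the tested level of 6.87. Proliferation markers (11 genes) averaged 10.26 to 10.28 in control thymus and 9.65 to 9.87 with Cre. Mesenchymal markers (7 genes) stood at 7.56 to 7.67 and 8.22 to 8.27, thymic epithelial markers (7 genes) at 8.95 to 9.09 and 9.27 to 9.34, and macrophage markers (8 genes) at 7.50 to 7.57 and 7.73 to 7.92. Their part in these values was not tested.

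**Figure D1:**
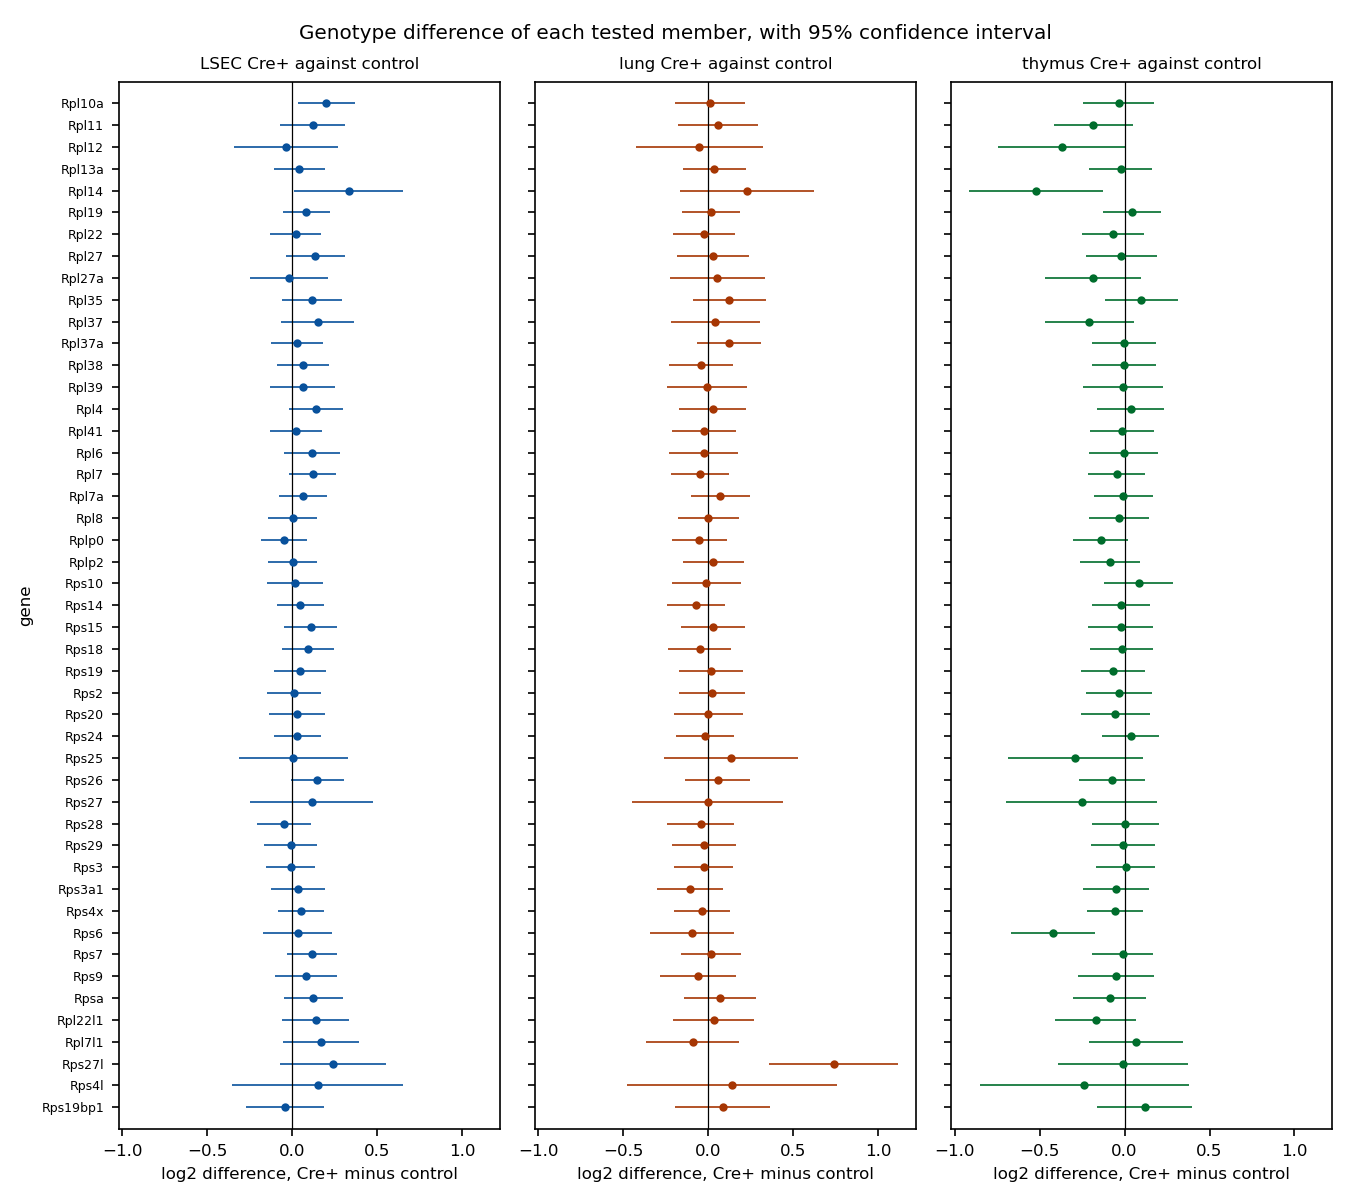
Log2 difference between Cre+ and control samples (horizontal axis) for the 47 tested members (vertical axis) in LSEC, lung and thymus; points are limma estimates and bars their 95% confidence intervals. No member passed after adjustment; Rps27l in lung (0.74) and Rpl14 in thymus (-0.52) lie farthest from 0.

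The genotype differences were then compared between tissues by an interaction contrast. Between LSEC and lung 0 of 47 members passed, with 0.614% of all genes called. An unadjusted p under 0.05 was found for 1247 of all 13035 genes and for 1 member, Rps27l (-0.50, adjusted p = 0.52). The next smallest p values were those of Rpl7 (0.17), Rpl7l1 (0.26) and Rpl10a (0.19). Between LSEC and thymus 0 of 47 passed, with 2.34% of all genes called. Here 2164 of all 13035 genes had an unadjusted p under 0.05, and so did 4 members. These were Rpl14 (0.86, adjusted p = 0.086, with its thymus arrays below the tested level), Rps6 (0.45, adjusted p = 0.14), Rpl37 (0.36, adjusted p = 0.27) and Rpl11 (0.30, adjusted p = 0.30). Without control LSEC replicate 3 the Rpl14 value was 0.99 (adjusted p = 0.041). Rpl14 entered the test through the endothelia alone, so this is given as a value only. Both contrasts share the LSEC arrays.

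Genes that build ribosomes gave few calls in the genotype comparisons. The lists of mTORC1 and TOP control (13.3%) and of the p53 response (25.0%) passed more often in LSEC than all genes (6.06%). The lists were named by function: 49 ribosome biogenesis genes, 33 initiation and 13 elongation factors, 12 genes of rRNA transcription, 30 of mTORC1 and TOP control, 16 of the p53 response to free ribosomal proteins, and 76 mitochondrial ribosomal proteins were tested. In LSEC the first 4 lists had 0 calls at the background of 6.06%. Their smallest p values belonged to Npm1 (nucleophosmin, 0.25), Nol11 (0.24), Eif2b3 (0.39), Eif4h (-0.20), Eef1d (0.27), Eif5a (0.15), Polr1e (0.42) and Polr1b (0.19), with adjusted p from 0.069 (Eif2b3) upward. Of the mitochondrial ribosomal proteins, Mrpl16 rose by 0.27 and Mrpl17 by 0.37 (adjusted p = 0.026 and 0.035), and the median of the 76 was 0.12. These 2 calls are 2.63% of that list, below the 6.06% of all genes.

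In the mTORC1 and TOP list, 1 gene of 30 rose and 3 fell in LSEC, with a median of -0.04; these are 13.3% of the list, against 6.06% of all genes. Pdcd4, an inhibitor of the helicase Eif4a, rose by 0.45 (adjusted p = 0.042). Insr, the insulin receptor gene, fell by 0.51 (adjusted p = 0.0084), Sesn1, an mTORC1 inhibitor and known FoxO target, by 0.62 (adjusted p = 0.017), and Eif4ebp1, an inhibitor of cap-dependent initiation, by 0.45 (adjusted p = 0.042). In the p53 list 4 genes of 16 (25.0%) fell and 0 rose, with a median of -0.24. Gadd45a, a growth arrest gene, fell by 2.33 (adjusted p = 6.9e-06) and Btg2, an antiproliferative gene, by 1.19 (adjusted p = 1.7e-04). Trp53inp1 fell by 0.61 (adjusted p = 0.015), and Sesn1 belongs to both lists. The p53 targets Cdkn1a and Mdm2 are on the list and did not pass.

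In lung and thymus all 7 lists had 0 calls. There 0.107% and 0.414% of all genes passed, so 0 calls says little about lists of this size. In lung the lowest p values of the p53 list were those of Gadd45a (-0.63, adjusted p = 0.56) and Mdm2 (0.30, adjusted p = 1). In thymus Wdr12, a factor of large subunit assembly, differed by -1.25 (adjusted p = 0.053), Nolc1, a nucleolar protein, by -0.47 (adjusted p = 0.085), and Sesn1 by -0.77 (adjusted p = 0.069). The differences of Gadd45a and Btg2 between LSEC and lung (-1.69 and -1.02) and between LSEC and thymus (-1.84 and -1.06) passed, with adjusted p of 0.011, 0.040, 0.0037 and 0.017. They are 2 of the 16 genes of the p53 list (12.5%) in each contrast, against 0.614% and 2.34% of all genes. Nolc1 differed by 0.66 between LSEC and thymus (adjusted p = 0.033), as 1 of 49 biogenesis genes (2.04%).

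Many members differed between tissues, as did many of all genes tested. Control LSEC were compared with control lung endothelial cells, and the same comparison was made in Cre+ arrays, which are other samples. Control thymus was compared with the mean of both control endothelia, and again in Cre+ arrays. The thymus comparisons share their endothelial arrays with the LSEC comparisons and are given side by side only.

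In control arrays 28 of 47 members (59.6%) differed between LSEC and lung, 3 higher and 25 lower in LSEC, where 46.1% of all genes passed. Among all genes of mean level 11 or more the share was 53.1%, and 48% in Cre+ arrays. Of the 42 core members 24 were lower and 1 higher, with a median of -0.26 against 0.08 over all genes. In Cre+ arrays 24 members (51.1%) passed, 2 higher and 22 lower, against 44.1% of all genes, with a core median of -0.19. Without Cre+ lung replicate 1 that count was 12, and without replicate 2 it was 13. Lung arrays differed from LSEC arrays in their markers too: 9 lung epithelial markers averaged 10.16 to 10.44 in lung and 6.95 to 7.39 in LSEC, 7 mesenchymal markers 10.73 to 11.12 and 5.65 to 7.06, and 11 proliferation markers 9.17 to 9.49 and 7.29 to 7.93. Their part in the difference was not tested.

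The split of higher and lower members turned on the scaling of the arrays. With quantile normalised values it was 3 higher and 25 lower; with median centring 5 and 7, with the values as deposited 2 and 15, with arrays centred on the core members 9 and 10, and with arrays centred on 338 bright genes outside the family 1 and 28. The core median was -0.26, -0.04, -0.12, -0.04 and -0.31 in the same order, while the median of all genes was 0.08, 0.08, -7e-04, 0.29 and -0.19. In Cre+ arrays the splits were 2 and 22, 4 and 5, 2 and 8, 6 and 7, and 1 and 36. Under all 5 scalings the control core median lay below 0, and lower calls outnumbered higher ones in both genotypes. With median centring and with arrays centred on the core the lean was small, and the latter holds the core median near 0 by construction. The size of a family-wide difference between LSEC and lung, and the number of calls, therefore rest on the scaling. Calls of the members named next that were lost under another scaling are given with them.

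Rps9, near the mRNA entry channel of the small subunit, was lower in LSEC by its brightest probe set. It stood at 12.57 and 12.62 in control lung and at 11.43, 11.37 and 11.66 in control LSEC, a difference of -1.11 (2.16-fold lower, SE 0.093, adjusted p = 4.1e-06). In Cre+ arrays it was 12.56 and 12.52 in lung and 11.64, 11.58 and 11.49 in LSEC (-0.97, adjusted p = 1.2e-05). All LSEC arrays lay below all lung arrays. These values come from the brightest of 3 probe sets (mean level 12.22). The others, at mean levels of 10.12 and 8.26, differed by -0.41 and 0.15 in controls (adjusted p = 0.072 and 0.32 in the fit of all probe sets), so the probe sets of Rps9 disagree.

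The paralog Rpl22l1 stood at 11.30 and 11.41 in control lung against 10.25, 10.17 and 10.40 in control LSEC (-1.08, SE 0.10, adjusted p = 8.0e-06). In Cre+ arrays the values were 11.38 and 11.39 against 10.42, 10.43 and 10.38 (-0.98, adjusted p = 1.9e-05). Its partner Rpl22, which is needed for the development of alpha-beta T cells, stood at 12.73 and 12.80 against 12.72, 12.62 and 12.63, a difference of -0.11 (adjusted p = 0.25). In controls the LSEC and lung arrays did not overlap for either gene. In Cre+ arrays they overlapped for Rpl22, at 12.63 to 12.72 in LSEC and 12.71 and 12.77 in lung. The paralog passed and the partner did not; the difference between the 2 genes was not tested.

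Rpl39, a small protein at the exit tunnel, stood at 12.37 and 12.46 in control lung and 11.66, 11.68 and 11.70 in control LSEC (-0.73, SE 0.097, adjusted p = 1.1e-04), and differed by -0.66 in Cre+ arrays. Rpl14 differed by -0.73 in controls and -0.63 in Cre+ arrays (adjusted p = 0.0036 and 0.0094); without Cre+ lung replicate 1 the latter was -0.59 (adjusted p = 0.066). Rpl27a was higher in LSEC by its brighter probe set. It stood at 8.04 and 8.26 in control lung and at 9.14, 9.02 and 9.04 in control LSEC (0.91, SE 0.12, adjusted p = 8.9e-05), and was 0.84 higher in Cre+ LSEC. A dim second probe set of Rpl27a (mean level 4.27) differed by -0.26 and 0.09 (adjusted p = 0.88 and 0.96 in the fit of all probe sets). Control LSEC lay at a mean of 6.78 for Rpl14, just below the tested level. Rps9, Rpl22l1, Rpl39, Rpl14 and Rpl27a passed in the same direction under all 5 scalings in both genotypes; with plain _at probe sets Rps9 gave 0.15 in controls and -0.05 in Cre+ arrays, neither passing.

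Rpl10a (-0.59), Rps6 (-0.56) and Rpl37 (-0.51) passed under all 5 scalings in control arrays alone; whether that differs from Cre+ arrays is answered by the interaction contrast, in which they did not pass. Rps6 also did not pass in controls with the mean of all probe sets (-0.28, adjusted p = 0.16). Rpl11 differed by -0.54 in controls (adjusted p = 9.1e-04), but with median centring the difference was -0.26 (adjusted p = 0.066). Rps19 differed by -0.49 in controls and -0.46 in Cre+ arrays (adjusted p = 4.1e-04 and 6.6e-04), and by -0.21 and -0.20 with median centring (adjusted p = 0.073 and 0.085). Rplp0 differed by -0.22 in controls and -0.21 in Cre+ arrays (adjusted p = 0.021 and 0.024), but by -0.03 and -0.05 with median centring (adjusted p = 0.77 and 0.66), while Rplp2 (-0.14 and -0.17) and Rpsa (0.08 and 0.14) did not pass.

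Of the paralogs, Rps27l was higher in control LSEC, at 11.83, 11.60 and 12.11 against 11.45 and 11.37 in lung (0.44, adjusted p = 0.041). That call was lost with either lung control left out (0.48 and 0.40, adjusted p = 0.11 and 0.18) and without LSEC control replicate 1 or 3 (0.45 and 0.31, adjusted p = 0.074 and 0.13). In Cre+ arrays the difference was -0.06. Rpl7l1 differed by 0.17 in controls and was 0.42 higher in Cre+ LSEC (adjusted p = 0.011), and 0.41 to 0.44 without either Cre+ lung array (adjusted p = 0.060 and 0.053). Rps4l (-0.29 and -0.28) did not pass. Rps19bp1, which encodes a binding partner of Rps19 and regulator of Sirt1, was 0.40 higher in control LSEC (adjusted p = 0.015), yet 0.30 as deposited (adjusted p = 0.094), and 0.43 and 0.38 without lung control replicate 1 or 2 (adjusted p = 0.058 and 0.092).

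**Figure D2:**
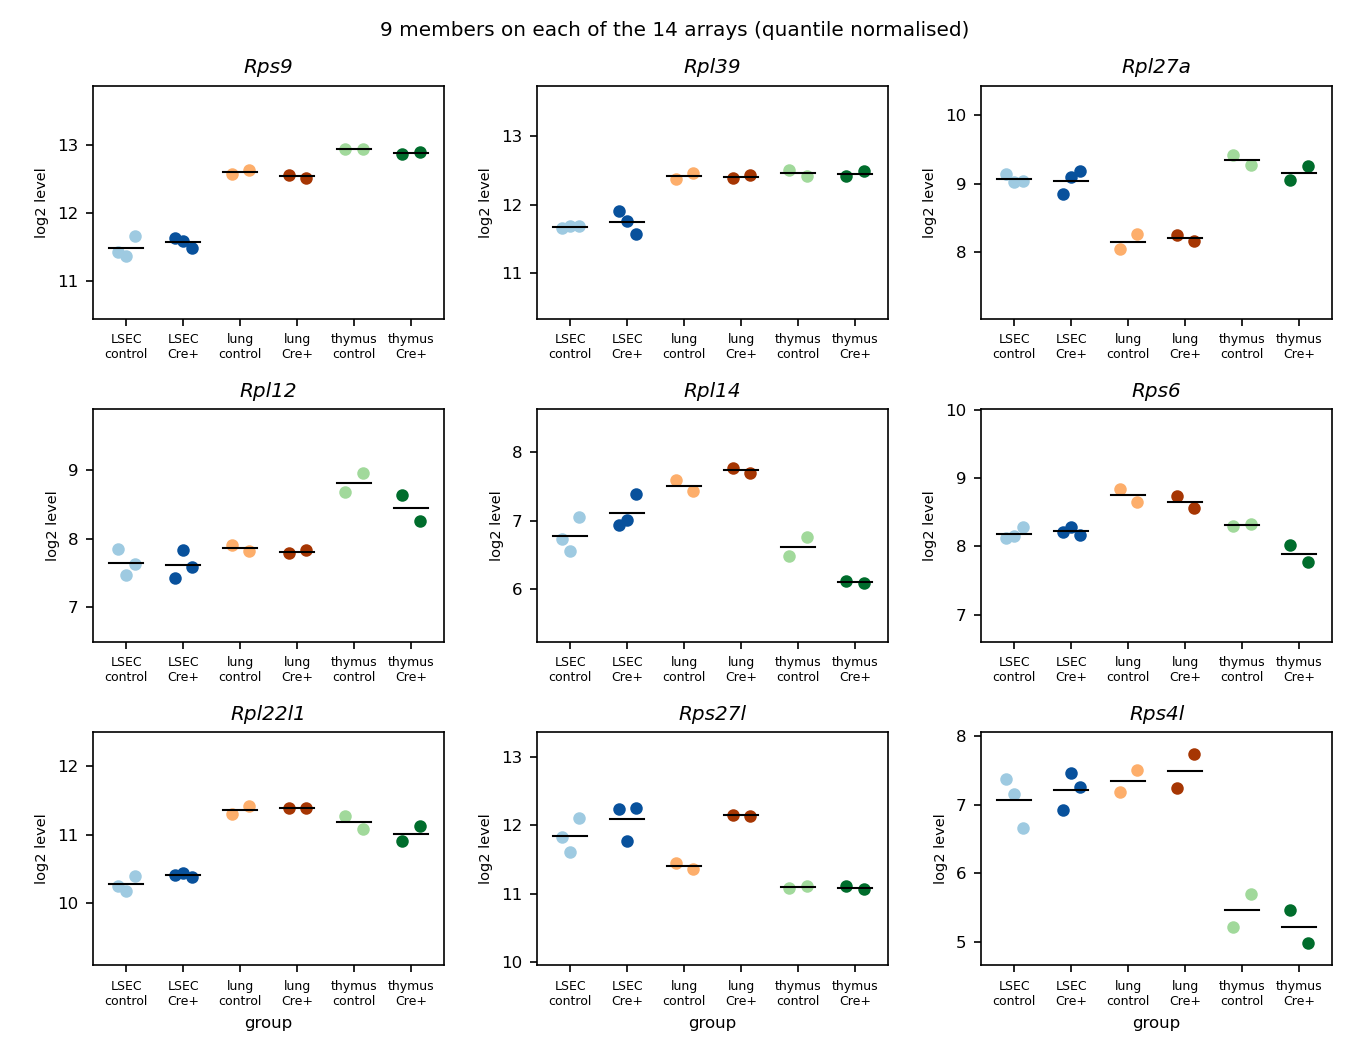
Quantile normalised log2 level of 9 members on each array, by group; points are arrays and lines group means, and all panels span the same range of log2 units. Rps9, Rpl39 and Rpl22l1 are lower in LSEC than in lung in both genotypes, Rpl27a is lowest in lung, and Rps4l is lowest in thymus.

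Control thymus differed from the control endothelia in 27 of 47 members (57.4%), 18 higher and 9 lower, where 65.5% of all genes passed. Among all genes of mean level 11 or more the share was 71.5%, and 71.7% in Cre+ arrays. The lower members include Rps4l, Rpl14 and Rps27, whose mean in both thymus groups was under the tested level of 6.87 and which entered the test through the endothelia; their thymus differences are given as values only. The core median was 0.12 against -0.08 over all genes. In Cre+ arrays 27 members (57.4%) passed as well, 14 higher and 13 lower, against 65.7% of all genes, with a core median of 0.05. Here too the split followed the scaling. In controls it was 3 higher and 21 lower with median centring, 10 and 9 as deposited, 6 and 19 centred on the core and 23 and 4 centred on bright genes outside the family. The core medians in that order were -0.16, 0.01, -0.09 and 0.24, and those of all genes -0.17, -0.0016, -0.28 and 0.23. In Cre+ arrays the splits were 3 and 27, 9 and 16, 8 and 18, and 15 and 9. The thymus arrays held thymocyte and T cell markers at 11.20 to 11.38 (11 genes), against 5.34 to 6.04 in the endothelia.

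The paralog Rps4l, related to the X-linked Rps4x, was dim in thymus. It stood at 5.21 and 5.70 in control thymus, at 7.38, 7.16 and 6.67 in control LSEC and at 7.19 and 7.51 in control lung (a difference of -1.75). In Cre+ arrays it was 5.46 and 4.98 in thymus and 6.92 to 7.74 in the endothelia (-2.14). Rps4x was 0.21 higher in control thymus (adjusted p = 0.012), -0.09 with median centring (adjusted p = 0.33), and differed by 0.15 in Cre+ arrays (adjusted p = 0.062).

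Rpl12 was higher in control thymus by its 1 probe set, a dim one (1.06, 2.08-fold higher, SE 0.14, adjusted p = 4.3e-05). It stood at 8.68 and 8.96 there, against 7.86, 7.48 and 7.63 in LSEC and 7.91 and 7.82 in lung. Rps9 stood at 12.93 and 12.94 in control thymus, above both endothelia (0.89, adjusted p = 2.5e-06), and Rpl27a at 9.41 and 9.27 (0.73, adjusted p = 9.1e-05). In Cre+ arrays these differences were 0.73, 0.83 and 0.53. Rpl12, Rps9 and Rpl27a were higher than the mean of the endothelia, and Rpl7l1, Rps19bp1 and Rps2 lower, under all 5 scalings in both genotypes. That mean joins beds that differ for Rps9, where LSEC stood below lung, and for Rpl27a, where lung stood below LSEC. In Cre+ arrays Rpl27a in thymus (9.05 and 9.25) overlapped LSEC (8.85, 9.10 and 9.19). Its dim probe set differed by 0.81 in control and -0.79 in Cre+ thymus (adjusted p = 0.51 and 0.52 in the fit of all probe sets).

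Rpl7l1 stood at 8.75 and 8.64 in control thymus and 9.40 to 9.69 in the control endothelia (-0.79, adjusted p = 3.7e-05), while its partner Rpl7 was higher there (0.39, adjusted p = 2.3e-04; 0.07 with median centring, adjusted p = 0.45). Rps2, at the mRNA entry site, read 12.89 and 12.96 in control thymus and 13.21 to 13.40 in the endothelia (-0.35, adjusted p = 0.0014). Rps19bp1 differed by -0.91 (adjusted p = 1.5e-05). Rps27l differed by -0.53 in control and -1.03 in Cre+ thymus (adjusted p = 0.0072 and 7.2e-05). Its partner Rps27 differed by -0.51 and -0.82. Without thymus control replicate 1 the control value of Rps27l was -0.52 (adjusted p = 0.050, just above the threshold).

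Rps20 (0.51), Rpl39 (0.42), Rpl22l1 (0.36) and Rps10 (0.34) were higher in control thymus than the mean of the endothelia but did not pass with median centring (0.19, 0.18, 0.20 and 0.04). Against lung alone, control thymus was not set apart for Rpl39 (means of 12.46 and 12.41) and stood lower for Rpl22l1 (11.18 and 11.36). In Cre+ thymus Rps20 (0.44), Rps10 (0.42), Rpl39 (0.38), Rps24 (0.32) and Rpl7 (0.31) were higher than the endothelial mean, and none of these passed with median centring (0.15, 0.09, 0.13, 0.02 and 0.03). Rpl14 differed by -0.52 in control and -1.33 in Cre+ thymus. Rpl37 differed by -0.31 (adjusted p = 0.017), and by -0.24 without replicate 2 (adjusted p = 0.16). In Cre+ thymus Rpl37 (-0.61), Rps25 (-0.59) and Rps6 (-0.54) were lower (adjusted p from 2.0e-04 to 0.0048), Rps25 not passing when arrays were centred on bright genes (-0.36). Rplp2 was 0.32 and 0.22 higher in control and Cre+ thymus (adjusted p = 0.0013 and 0.013), but 0.03 and -0.06 with median centring (adjusted p = 0.73 and 0.51), while Rplp0 (0.01 and -0.08) did not pass. Rpl11 was 0.28 higher in control thymus and 0.003 in Cre+ thymus, and Rps19 did not pass in either (-0.07 and -0.17). Rpsa did not pass in control thymus (-0.12) and was lower in Cre+ thymus (-0.30, adjusted p = 0.0068), not passing when arrays were centred on bright genes (-0.23, adjusted p = 0.060).

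**Figure D3:**
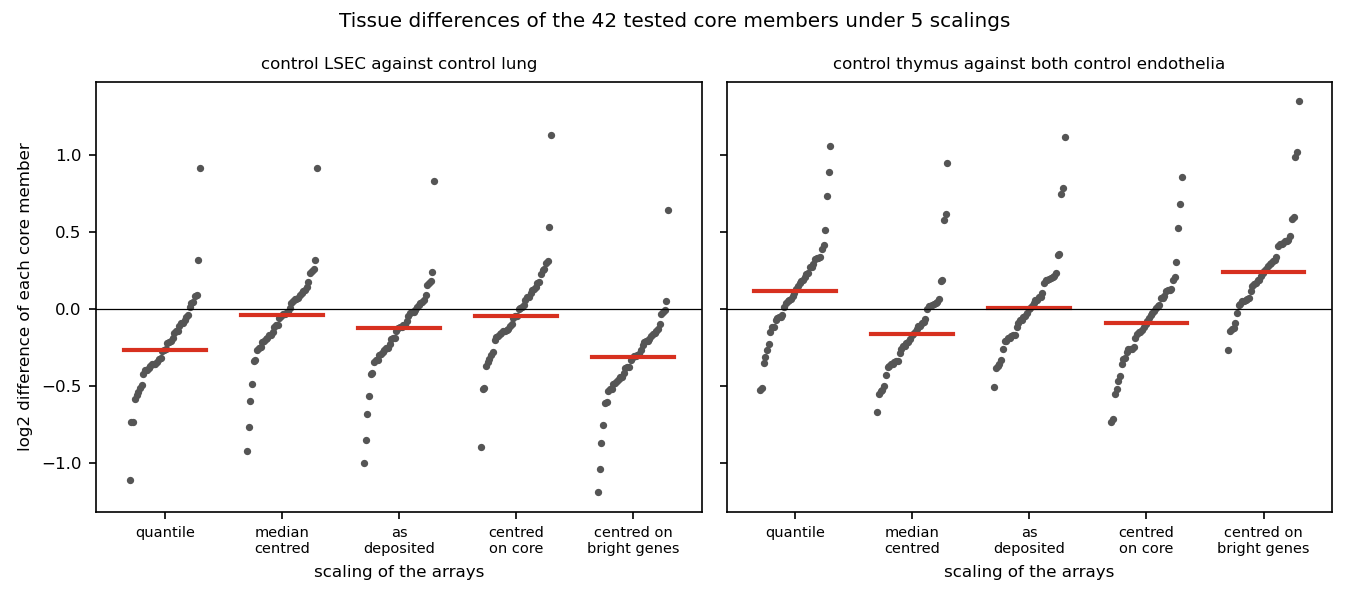
Log2 difference of each of the 42 tested core members (points, sorted by value) in control LSEC against control lung and in control thymus against both control endothelia, under 5 scalings of the arrays; red lines are medians. The spread of members around the median has a like shape in each scaling, while the median itself runs from -0.31 to -0.04 in the first comparison and from -0.16 to 0.24 in the second.

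The mean over the 43 core members moved little between arrays. With quantile normalised values it was 11.81 ± 0.036 (SD, n = 3) in control LSEC and 11.88 ± 0.031 (n = 3) in Cre+ LSEC, 12.02 ± 0.019 and 12.03 ± 0.0059 (n = 2 each) in control and Cre+ lung, and 12.04 ± 0.0037 and 11.96 ± 0.0013 (n = 2 each) in control and Cre+ thymus. With median centred values the order changed: control and Cre+ LSEC stood at 11.97 and 12.01, lung at 12.01 and 12.00, and thymus at 11.86 and 11.77. Control thymus had the highest mean in the first scaling, and both thymus groups the lowest in the second. The order Cre+ thymus below control thymus held in both and in the values as deposited (11.91 and 11.98).

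**Figure D4:**
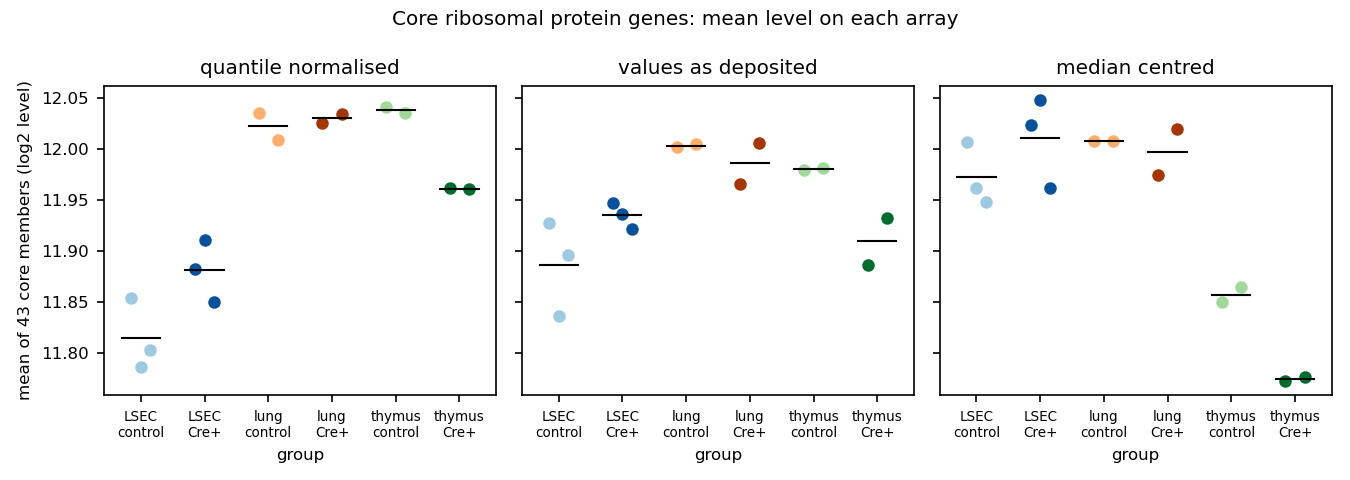
Mean log2 level of the 43 core members on each of the 14 arrays (points) with group means (lines), under 3 scalings; the vertical axis covers only 0.3 log2 units. Control thymus lies at 12.04 with quantile normalisation and at 11.86 with median centring, while lung stays near 12.

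Probe sets of one gene passed in opposite directions for Rps24, Rpl35 and Rps20. In control LSEC against control lung, 1 of 6 probe sets of Rps24 was higher (0.36) and 4 were lower. In control thymus 1 dim probe set of Rpl35, a protein at the tunnel exit, was higher (0.64, mean level 6.14) and 2 were lower, and in Cre+ thymus 1 was higher (0.94) and 3 lower. For Rps20 in Cre+ thymus 2 probe sets were higher (0.44 and 0.23) and 1 dim one lower (-0.93). Fau, a ribosomal protein gene that the symbol rule leaves out, differed by -0.79 and -0.83 between LSEC and lung, and by 0.59 and 0.53 between thymus and the endothelia, in control and Cre+ arrays (adjusted p from 3.0e-05 to 1.5e-04), and differed by at most 0.09 between genotypes.

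In control thymus against the endothelia, 27 of 49 ribosome biogenesis genes were lower and 8 higher (median -0.34), as were 30 of 76 mitochondrial ribosomal proteins lower and 11 higher (median -0.16). Together 71.4% of the biogenesis list and 53.9% of the mitochondrial list passed, against 65.5% of all genes. In Cre+ arrays the counts were 33 and 4, and 44 and 9, or 75.5% and 69.7% of the lists, against 65.7% of all genes. These list counts and medians use quantile normalised values and were not taken under the other scalings. Utp20 (-1.39), Pno1 (-1.18) and Rrp12 (-1.13), factors of small subunit assembly, were lower, and Emg1, an 18S rRNA methyltransferase, was 1.34 higher. Mrps18b (-1.60), Mrps10 (-1.22), Mrpl17 (-1.15) and Mrps27 (-1.07) were lower. The cytosolic core, with 17 of 42 higher and 5 lower, had its median on the other side of 0 with quantile normalised values, and whether the lists differ was not tested.

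Between control LSEC and control lung, 16 of 49 biogenesis genes were higher in LSEC and 9 lower, and 18 of 76 mitochondrial ribosomal proteins were higher and 8 lower. Of 33 initiation factors 11 were lower and 2 higher, among them Eif4b (-0.83) and Eif2b2 (0.70). Of 13 elongation factors 3 were lower and 1 higher: Eef2, the translocase, by -0.91, Eef1d by -0.71, Eef1b2 by -0.65 and Eif5a2 by 0.38. The shares that passed were 51.0% of the biogenesis, 34.2% of the mitochondrial, 39.4% of the initiation and 30.8% of the elongation list. These were near or below the 46.1% of all genes. Of the other lists, mTORC1 and TOP control (70.0%) and the p53 list (56.2%) stood above that share, and rRNA transcription (16.7%) below it.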

How the data were processed

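The authors' deposited table gives, for every array, a log2 value per probe set. Its log base was taken from the value range (0 to 13.84); how the authors summarised and normalized the probes is not given in the sources used here. Array medians spread over 0.282 (limit 0.2), so quantile normalisation was applied. Symbols came from the array's annotation table and the GRCm38.p6 gene table, where all 106 member probe sets matched. A single limma 3.58.1 model (R 4.3.3; lmFit, eBayes, 8 residual and 3.21 prior degrees of freedom) with 6 group means covered 13035 genes, kept if a tissue mean was at least 6.87, percentile 40 of the probe sets. Benjamini-Hochberg adjustment ran over all genes of a contrast (threshold 0.05), or over all probe sets where these are compared. Members, lists and tests were chosen with earlier results of these data known. Named were, per comparison, the 8 largest passing changes each way or, where fewer than 4 passed, the 4 smallest p. Also named were paralogs and partners, stalk genes, Rpsa, Rps6, Rps19, Rpl11 and Fau, up to 4 passing genes of each list or its 2 smallest p (shortened for lists between tissues), and genes with opposed probe sets. The model was tested on simulated data. Centring on bright genes and crossed lung numbers were added after seeing the data. With few arrays per group, their number sets the precision.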

Additional observations from a re-analysis of the deposited data

How the results depend on the processing

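For the members named by size of change or smallest p, under the alternatives, 1186 values kept their direction and side of the threshold, 55 no longer passed, 2 newly passed and 3 reversed. The reversals were Rps9 in control LSEC against lung with plain _at probe sets (0.15, adjusted p = 0.22), Rps20 in Cre+ thymus with the mean of all probe sets (-0.095, adjusted p = 0.41) and Rps24 in Cre+ thymus with plain _at probe sets (-0.083, adjusted p = 0.49); for Rps9 and Rps24 another probe set stood for the gene, and for Rps20 dim probe sets entered the mean. With the mean of all probe sets 1 member, Rpsa, not among those values, turned from 0.13 and passed in LSEC (-1.04, adjusted p = 0.0057) and in LSEC minus thymus (1 member; -1.30, adjusted p = 0.036), through its nearly dark probe set. With array weights 1 passed in lung. Leaving out 1 array gave 0 to 1 members in LSEC minus thymus.

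Counts of members in control LSEC against lung were 28, but 12 with median centring, 17 as deposited and 11 with plain _at probe sets, of which 21 members were tested. In Cre+ arrays the count of 24 became 9 with median centring, 10 as deposited, 13 centred on the core, 37 centred on bright genes, 10 with plain _at probe sets and 15 with only the arrays compared. Leaving out 1 array gave 12 to 22. For thymus, plain _at probe sets gave 13 in control and 17 in Cre+ arrays, against 27 in each. The cause of these shifts was not tested beyond the fewer genes or arrays that some of them use.

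Same-numbered replicates did not deviate together (correlations of -0.31, -0.09 and -0.26 in LSEC, -0.24 in lung and 0.05 in thymus). With a replicate block 0 members passed in each of the 5 genotype comparisons; with lung numbers crossed it was 0 members, and 3 of all genes against 14. No block was run for tissue comparisons, where replicate numbers are nested in tissue. The identity of paralog and partner proteins was not run, since no protein table was used here. Signals near the top of the scale, 2 or 3 arrays per group and probe sets shared between family copies limit what small differences can show.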
